A study of Homo sapiens with 6 samples.

Results

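TDRD9, a germline RNA helicase with a Tudor domain, was examined together with 9 further genes of the piRNA pathway: TDRD1, TDRD5, TDRD6, TDRD7, TDRKH, PIWIL1, PIWIL2, PIWIL4 and MAEL. TDRD9 was selected on its measured difference between MPA and control arrays, so its own values are a description and carry no test. The other genes were chosen for their place in the pathway, to see whether TDRD9 was higher alone or with them. Every probe set annotated to 1 of these genes alone was used. This gave 13 probe sets of 9 genes, out of 41091 probe sets of 19775 genes with a single symbol. No probe set stood under TDRD7 alone in the annotation, and TDRD7 was not analysed here.

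The cells were IKPRAB-36, an Ishikawa endometrial cancer cell line stably transfected with progesterone receptors A and B (PRA and PRB). They were grown in medium with charcoal stripped serum, hygromycin and neomycin, either without MPA (control 1 to 3) or with 1 nM medroxyprogesterone acetate, the synthetic progestin MPA (MPA 1 to 3), for 48 h. The labels give no treatment for the control cells and name no vehicle. RNA was hybridized to Affymetrix U133 Plus arrays, and values are RMA signals on the log2 scale. Both receptors are supplied by transfection, and it is not stated that the 3 arrays of a group came from separate cultures, so p-values measure only the spread between arrays.

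PIWI-interacting RNAs (piRNAs) are small RNAs that guide PIWI proteins, the germline branch of the Argonaute family, to transcripts of transposable elements. The pathway is best known from the testis, where its loss releases transposons and stops the making of sperm. PIWI proteins carry methylated arginines that Tudor domains bind, so Tudor proteins act as its scaffolds. In most somatic tissues the genes are silent, many of them under DNA methylation at CpG-rich promoters.

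The promoters of 3 members are shown, for a gene that was higher with MPA (TDRD9), one with signal over the array medians in both groups (TDRKH) and one with signal under them in both (PIWIL1). Each line gives 250 bases before the RefSeq start site (GRCh38.p14), 5′ to 3′ on the strand of the gene, with CpG dinucleotides in capitals. The TDRD9 stretch is chr14:103928206-103928455 on the plus strand, the TDRKH stretch chr1:151790501-151790750 on the minus strand and the PIWIL1 stretch chr12:130337637-130337886 on the plus strand.
TDRD9: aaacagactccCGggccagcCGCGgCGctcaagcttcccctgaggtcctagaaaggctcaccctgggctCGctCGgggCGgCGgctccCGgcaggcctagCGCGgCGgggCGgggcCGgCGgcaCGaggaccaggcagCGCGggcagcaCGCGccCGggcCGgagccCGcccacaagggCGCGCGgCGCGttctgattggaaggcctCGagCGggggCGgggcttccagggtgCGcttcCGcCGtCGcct
TDRKH: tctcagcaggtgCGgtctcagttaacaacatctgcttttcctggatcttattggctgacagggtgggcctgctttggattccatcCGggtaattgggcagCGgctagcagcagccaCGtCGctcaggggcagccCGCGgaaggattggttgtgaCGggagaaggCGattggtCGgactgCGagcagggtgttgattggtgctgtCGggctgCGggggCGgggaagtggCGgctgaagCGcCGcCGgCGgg
PIWIL1: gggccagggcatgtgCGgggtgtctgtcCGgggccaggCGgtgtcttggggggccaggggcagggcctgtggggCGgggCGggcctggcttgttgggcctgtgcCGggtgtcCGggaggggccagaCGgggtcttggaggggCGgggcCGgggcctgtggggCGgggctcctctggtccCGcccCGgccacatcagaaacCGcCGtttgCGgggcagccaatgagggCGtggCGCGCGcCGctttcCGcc

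The TDRD9 stretch held 35 CpG, the PIWIL1 stretch 22 and the TDRKH stretch 19. In the full RefSeq window, which adds 50 bases after the start, TDRD9 had 41 CpG in 300 bases, with an observed over expected ratio of 0.941. Of 35116 such windows in the table, 94.2% held as many CpG or fewer, and the median was 14. Of the members, 8 were found in the promoter table (all but PIWIL2 and PIWIL4), with 12 windows in all. Their CpG counts ran from 13 in one TDRD5 window to 60 in one MAEL window, so the TDRD9 promoter lay within the range of its pathway. The letters of a full steroid receptor element, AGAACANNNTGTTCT, which read alike on both strands, were in no member window and in 1 window of the whole table (0.00285%). A single arm of it, TGTTCT or AGAACA, was in 3 member windows, both of TDRD1 and one of MAEL, and in 14.8% of all windows. The TDRD1 windows overlap each other and may share the same site. TDRD9 held neither in its window. DNA methylation and receptor binding were not measured here, and the windows reach only a short way from the start site.

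TDRD9 went from a signal under the median of every array to one above it. Its single probe set, 228285_at, read 3.47, 3.03 and 3.42 on the control arrays and 7.82, 7.66 and 6.83 on the MPA arrays. The groups were thus far apart, with MPA 3 the lowest of the treated arrays. The means were 3.31 ± 0.24 and 7.44 ± 0.53 on the log2 scale (SD, n = 3 arrays each), a difference of 4.13 (standard error 0.25), or 17.5-fold. By size of increase TDRD9 stood in place 8 among the 19775 genes, each taken by its brightest probe set. The control mean exceeded only 17.2% of all probe sets, and the array medians lay between 5.16 and 5.28. So low a signal may be background alone, and the fold is that of the RMA signals only. In RNA from whole cultures, more RNA per cell and more cells with the transcript cannot be told apart.

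The poly-A spike-in controls were dimmer on MPA 3 (mean of 24 probe sets 6.60 on the log2 scale) than on the remaining arrays (8.09 to 8.90). MPA 3 also had the highest array median, at 5.28 against 5.16 to 5.2 on the remaining arrays. Without MPA 3 the TDRD9 difference was 4.44, and with any other array left out it was 3.94 to 4.21. The part of this array in the spread of TDRD9 was not tested.

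**Figure D1:**
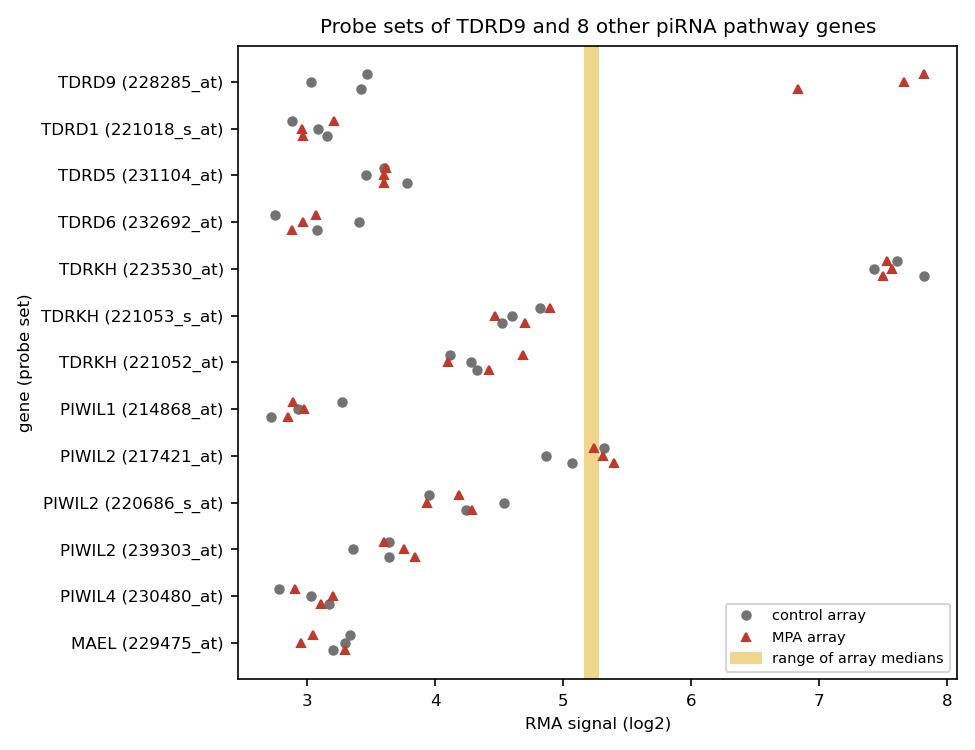
RMA signal (log2, horizontal axis) of the 13 probe sets of TDRD9 and 8 other piRNA pathway genes on each control array (grey circles) and each MPA array (red triangles), with the range of the 6 array medians shaded. TDRD9 reads 3.03 to 3.47 on the control arrays and 6.83 to 7.82 on the MPA arrays, whereas the groups overlap in each of the other 12 probe sets.

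The 8 other members did not move with TDRD9 beyond the error of the arrays. None of their 12 probe sets was called by limma (adjusted p under 0.05 and the small fold minimum of the study's methods), where 2.03% of all 54613 probe sets were, 1.21% higher and 0.813% lower. None had an unadjusted p under 0.05, and SAM, the test of the study's methods, called none either. Differences ran from -0.18 to 0.23 on the log2 scale, with 6 on either side of 0 and a median of 0.00, against 0.01 over all probe sets. The 95% intervals reached from -0.49 to 0.53 at most, so a 2-fold change of these signals lay outside all 12. Control and MPA arrays overlapped in all 12, while they did not overlap in 15.4% of all probe sets. For 10 of the 12 the signal was under the median of the array on all 6 arrays. A transcript that the probe set could not measure there would have gone unseen.

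Among the PIWI genes, PIWIL2 was the only one with a probe set at the level of the array medians. PIWIL2, which in the mouse starts the amplification of piRNAs in fetal germ cells, read 5.32, 4.87 and 5.07 in control cells and 5.24, 5.31 and 5.40 with MPA in its brightest probe set (217421_at). The difference of 0.23 (95% interval -0.07 to 0.53) had an adjusted p of 0.663 from limma, the lowest of the 12. The lowest MPA value lay under the highest control value. Its other probe sets did not point one way, with differences of -0.10 (220686_s_at) and 0.19 (239303_at).
PIWIL1, the PIWI protein of meiotic and postmeiotic male germ cells, read 3.27, 2.93 and 2.72 without and 2.89, 2.98 and 2.85 with MPA. PIWIL4, whose mouse counterpart enters the nucleus to direct DNA methylation of transposons and works with TDRD9, read 2.78, 3.03 and 3.17 without and 2.91, 3.20 and 3.11 with MPA. In both genes the MPA values lay within or beside the control values, at differences of -0.07 and 0.08. The control mean of PIWIL4 exceeded only 10.6% of all probe sets.

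The Tudor genes other than TDRD9 were low, apart from TDRKH. TDRD1, a scaffold that binds PIWI proteins in the granules where piRNAs are made, read 2.88, 3.09 and 3.16 in control cells and 3.21, 2.96 and 2.97 with MPA. TDRD5, needed for the processing of piRNA precursors, read 3.60, 3.46 and 3.78 against 3.62, 3.60 and 3.60. TDRD6, a protein of the chromatoid body of spermatids, read 2.75, 3.41 and 3.08 against 3.07, 2.97 and 2.88. The differences of these 3 genes were 0.01, -0.01 and -0.11, smaller than the range of the control arrays.
TDRKH anchors PIWI proteins at mitochondria, where the ends of piRNAs are trimmed. Its brightest probe set (223530_at) read 7.61, 7.43 and 7.82 without and 7.53, 7.57 and 7.50 with MPA, above the median on all 6 arrays. It was the only probe set of these 12 that was, and its difference was -0.09 (95% interval -0.36 to 0.19; adjusted p = 0.92 from limma). The remaining TDRKH probe sets lay under the medians, with differences of 0.04 (221053_s_at) and 0.16 (221052_at). MAEL, a factor of transposon silencing, read 3.34, 3.30 and 3.20 without and 3.05, 2.95 and 3.30 with MPA, a difference of -0.18 (adjusted p = 0.726 from limma).

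To see whether further genes of the pathway were higher, a list of 28 piRNA genes outside the members was read, of which 26 were measured. None was called by limma or by SAM, 3 had an unadjusted p under 0.05, and all 40 probe sets of these genes stayed without a call. Counts by unadjusted p, here and for the other lists, are descriptions only, since the share over all genes is not given beside them. Of the brightest probe sets of all genes, limma called 2.9%, 1.74% higher and 1.16% lower. SAM called 1313 higher and 868 lower of all 54613 probe sets. At such shares a list of 26 genes may well hold no call. The absence of calls, here and in the other lists, is thus a description. The median difference of the list was 0.01 on the log2 scale, against 0.02 over all genes, and the list ran from -0.40 to 0.39. The ends of that range were BTBD18, a transcription cofactor of piRNA precursor genes (-0.40, adjusted p = 0.314 from limma), and STK31, a Tudor protein with a kinase domain (0.39, adjusted p = 0.429). NANOS3, an RNA-binding protein of primordial germ cells, had the lowest adjusted p (0.37 higher, adjusted p = 0.288 from limma).
Of the 26, 16 were under the median on all arrays. Among them were the germ cell helicase DDX4, at 2.87 ± 0.15 without and 2.93 ± 0.17 with MPA (SD, n = 3), TDRD12, another Tudor helicase, at 4.35 ± 0.13 and 4.62 ± 0.14, and PLD6, a mitochondrial nuclease of piRNA processing, at 4.33 ± 0.07 and 4.33 ± 0.25. A further 8 were above the median on all arrays. They included HENMT1, the methyltransferase that protects the ends of piRNAs (8.98 ± 0.04 and 9.10 ± 0.08), and PRMT5 with its partner WDR77, which methylate arginines of PIWI and spliceosomal proteins (differences of -0.09 and -0.21, adjusted p of 0.907 and 0.704 from limma). TCFL5 and MYBL1, transcription factors of meiotic germ cells, had differences of -0.18 and -0.07.

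**Figure D2:**
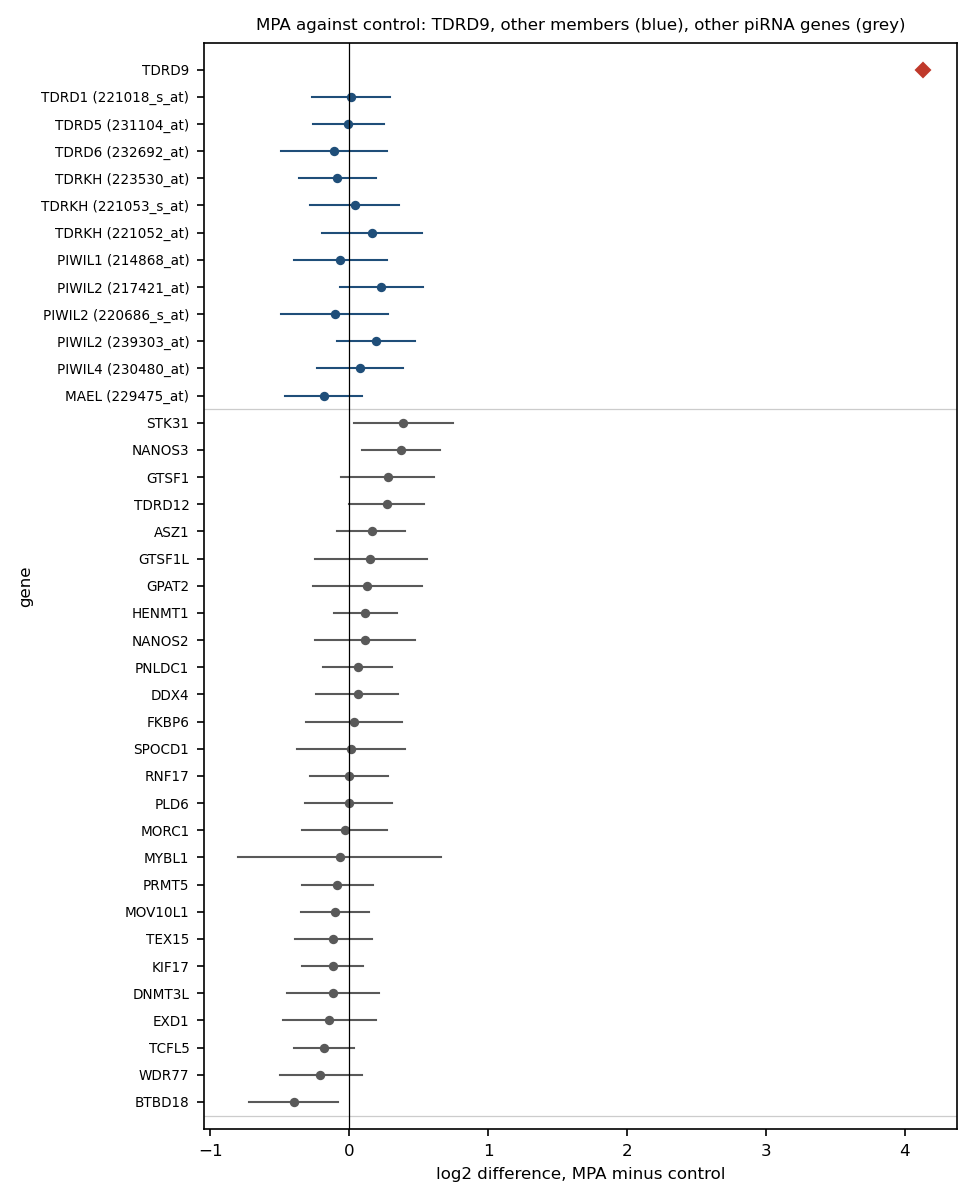
Difference of the log2 signal, MPA minus control (horizontal axis, 3 arrays each), for TDRD9 (red diamond, drawn without an interval since the gene was chosen for this value), the 12 probe sets of the other members (blue) and the brightest probe set of each of 26 further piRNA pathway genes (grey). Bars are 95% intervals from limma. TDRD9 lies at 4.13 and the rest between -0.40 and 0.39.

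TDRD9 is related by its domains to Tudor proteins outside the pathway and to DExH-box helicases. Of 23 measured Tudor genes outside the piRNA pathway, 1 was called by limma, where 2.9% of the brightest probe sets of all genes were. This was ZMYND8, a chromatin reader, which was 1.54-fold higher (9.05 ± 0.08 and 9.67 ± 0.13, SD, n = 3, adjusted p = 0.0275 from limma). That call was lost when any array but MPA 3 was left out (adjusted p up to 0.17 from limma). A second ZMYND8 probe set (209048_s_at) was called as well (difference 0.59, adjusted p = 0.0385 from limma). In the other direction the lowest adjusted p was that of KDM4A, a histone demethylase, at -0.41 (adjusted p = 0.281 from limma). Of 19 DExH-box helicases, none was called by limma or SAM and none had an unadjusted p under 0.05, with differences from -0.17 to 0.35. DHX29, a helicase of translation initiation, was at 0.35 (adjusted p = 0.747 from limma) and DHX37, a helicase of ribosome assembly, at -0.13 (adjusted p = 0.818). The Argonaute and microRNA genes, the somatic counterpart of the pathway, had 13 measured members and no call by limma or SAM. AGO2, the Argonaute that cleaves its targets, was at -0.23 (adjusted p = 0.591 from limma) and AGO4 at 0.22 (adjusted p = 0.723), and none of the 13 had an unadjusted p under 0.05.

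Germ cell and meiosis genes gave no call, and cancer-testis antigen genes gave a pair of calls in opposite directions. Of 38 measured germ cell and meiosis genes (45 listed), limma and SAM called none and none had an unadjusted p under 0.05, with a median difference of 0.03. In 28 of them the signal was under the median on all arrays. PRM2, a protamine that packs sperm DNA, was at 0.30 (adjusted p = 0.508 from limma) and HORMAD1, a protein of the meiotic chromosome axis, at -0.13 (adjusted p = 0.855). Of 24 measured cancer-testis antigen genes, 1 was higher and 1 lower by limma, against 1.74% higher and 1.16% lower over all genes. Counts this small say little of the list as a whole. The signals of 13 of the 24 were above the median on all arrays. SSX1, a repressor protein of testis and some tumors, read 10.08, 10.21 and 10.17 without and 9.04, 9.09 and 9.25 with MPA, so that its groups did not overlap. It fell by 1.03 on the log2 scale (standard error 0.11, adjusted p = 0.00174 from limma), although its probe set, 206626_x_at, is of a type that may also bind related SSX transcripts. Averaged over all SSX1 probe sets the difference was smaller, at -0.60 (adjusted p = 0.00865 from limma). ATAD2, a chromatin ATPase that is also found in dividing somatic cells, read 8.74, 9.70 and 9.11 without and 10.61, 10.74 and 10.45 with MPA. It rose by 1.41 in its brightest probe set (adjusted p = 0.0152 from limma), and lost this call without control 3, MPA 1 or MPA 2 (adjusted p of 0.0617 to 0.0898). The ATAD2 probe sets 222740_at and 228401_at were called higher as well (differences of 1.43 and 1.51, adjusted p of 0.0149 and 0.00742 from limma). Averaged over all ATAD2 probe sets the difference was 1.37 (adjusted p = 0.00636 from limma).

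Genes of DNA methylation and genes derived from transposons, both tied to the work of the pathway, gave no call by limma, though DNMT3A and ERVMER34-1 were called under some other settings. Of 14 enzymes and readers of DNA methylation, limma called none and 3 had an unadjusted p under 0.05, whereas SAM called DNMT3A lower. DNMT3A, a DNA methyltransferase, read 8.14, 8.0 and 8.11 without and 7.50, 7.55 and 7.72 with MPA, groups that did not overlap (difference -0.49, adjusted p = 0.0682 from limma). By limma it was called lower without MPA 3 (adjusted p = 0.045), with the replicate number as a block (adjusted p = 0.0451) and with signals scaled to housekeeping genes (adjusted p = 0.0346). In the 11 remaining alternatives DNMT3A was not called. Averaged over all its probe sets the difference was smaller, at -0.36 (adjusted p = 0.109 from limma). TET1, which oxidizes methylated cytosine, was at 0.18 (adjusted p = 0.83). Of 14 measured genes derived from retroviruses or transposons, limma again called none and 4 had an unadjusted p under 0.05, while SAM called ERVMER34-1 and RTL8C. By limma ERVMER34-1 was also called lower after scaling by housekeeping genes and after averaging the probe sets of each gene. ERVMER34-1, a retroviral envelope gene, read 8.41 ± 0.06 without and 7.96 ± 0.09 with MPA (SD, n = 3), at an adjusted p of 0.0782 by limma, and RTL8C, derived from a retrotransposon gag gene, 10.85 ± 0.13 and 11.31 ± 0.13 (adjusted p = 0.141). The RTL8C probe set, 201828_x_at, is of the same type as that of SSX1 and may also bind related transcripts. The transcripts of repeated transposon copies were not analysed here.

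**Figure D3:**
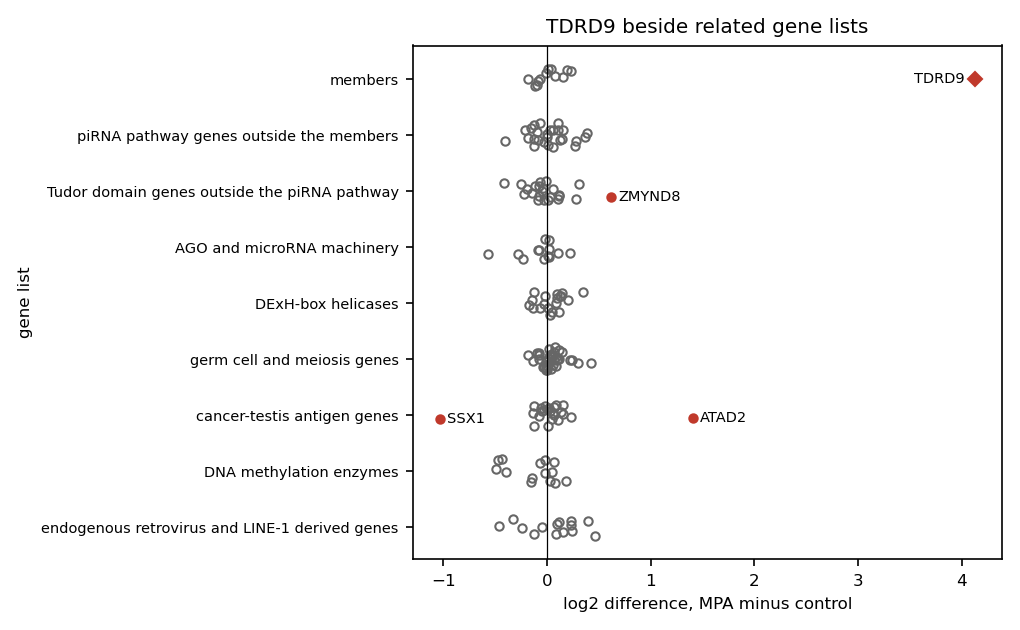
Difference of the log2 signal, MPA minus control (horizontal axis, 3 arrays each), for the probe sets of the members and the brightest probe set of each measured gene of 8 related lists (rows, points spread vertically for view). Filled red circles passed the limma test (ZMYND8 0.62, ATAD2 1.41, SSX1 -1.03), open circles did not, and the red diamond is TDRD9 at 4.13, which was not tested.

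The genes beside TDRD9 were read to see whether a wider stretch of chromosome 14 was higher. Of 5 genes on either side in the RefSeq order, 3 were measured by 5 probe sets, none was called by limma or SAM, and none had an unadjusted p under 0.05. ATP5MJ, the next gene before TDRD9 and a subunit of ATP synthase, read 10.94 ± 0.05 without and 10.94 ± 0.08 with MPA in 202279_at, and 12.52 ± 0.06 and 12.60 ± 0.05 in 210532_s_at (SD, n = 3). PPP1R13B, an enhancer of p53 function, was at 0.09 (95% interval -0.22 to 0.40). ASPG, an asparaginase, was at 0.25 (1557225_at) and 0.14 (1557226_a_at), with MPA 3 the highest array in both. RD3L and 6 other genes of the 10 had no probe set of their own in the annotation.

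The genes whose values over the 6 arrays were most like those of TDRD9 were COL4A3, TIPARP, CXCR4, SGK1 and RHOU. Likeness was the root mean square difference between log2 values, each centred on the mean of its gene, over 19775 genes. It mainly reflects the size of the difference between the groups, and is a description. COL4A3, a chain of type IV collagen, was the nearest (0.251), followed by TIPARP, an ADP-ribosyltransferase (0.356), CXCR4, a chemokine receptor (0.398), SGK1, a kinase induced by corticosteroids (0.401), and RHOU, a small GTPase (0.421). KCNG1 came next at 0.426, so the last of these places was narrowly held.
COL4A3 read 4.30, 4.39 and 4.32 without and 8.64, 8.61 and 8.26 with MPA, like TDRD9 from under the array medians to well above them. MPA 3 was the lowest treated array in COL4A3, TIPARP and RHOU, as in TDRD9, and not in CXCR4 or SGK1. SGK1 was the most even of the 5 with MPA, at 10.45, 10.51 and 10.53, whereas TDRD9 had the widest spread of treated arrays.

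**Figure D4:**
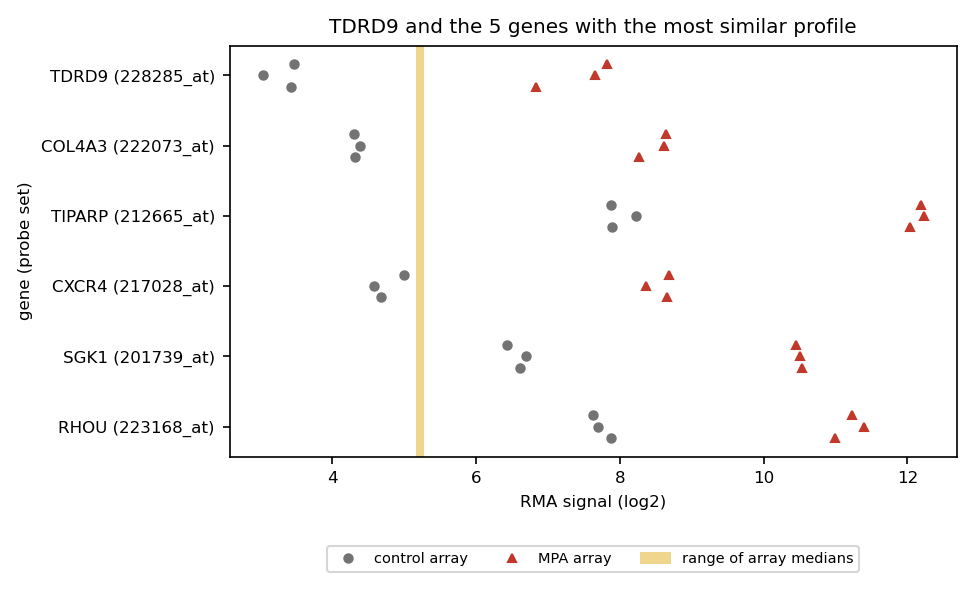
RMA signal (log2, horizontal axis) of TDRD9 and the 5 genes with the smallest root mean square difference from it over the 6 arrays, on control arrays (grey circles) and MPA arrays (red triangles), with the range of array medians shaded. TDRD9, COL4A3 and CXCR4 start under the medians, while TIPARP, SGK1 and RHOU start above them.

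The cell type labels were checked against markers. All 8 epithelial markers, among them KRT18 at 14.02 ± 0.05 in control cells (SD, n = 3), were above the median on all arrays and none was called by limma. Unadjusted p-values were under 0.05 for 3 of them, the adhesion proteins CDH1 (difference -0.76) and EPCAM (-0.54) and the transcription factor PAX8 (-0.44), with lower values on every MPA array than on any control array. Control and MPA arrays did not overlap in 15.4% of all probe sets. The other 5 markers, 4 keratins and MUC1, had differences of 0.02 to 0.33. Of these, KRT8 (0.22) was higher on every MPA array than on any control array. The part of these differences in the values of TDRD9 was not tested. Of the markers of other cell types, PTPRC of leukocytes and COL1A2 of fibroblasts were under the median on all arrays, and DES and PECAM1 were above it (control means of 5.38 and 6.30) with differences of -0.04 and -0.18. Germ cell markers were as given above, with DDX4 near the bottom of the range in both groups.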

How the data were processed

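All 6 arrays were used, 3 of control and 3 of MPA treated IKPRAB-36 cells. The authors deposited log2 signals from RMA (background correction, normalization between arrays, summary of probes). These steps were not repeated, and no source used here gives the software version. Of 54675 probe sets, 62 Affymetrix controls were left out. Gene names came from the platform annotation and were brought up to date by Entrez identifier: 41091 had 1 symbol, 1801 several and 11721 none. A gene on a list was read from its brightest probe set, and a member from all its probe sets.

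Groups were compared with limma 3.58.1 in R 4.3.3 (lmFit and eBayes, two-sided, Benjamini-Hochberg adjustment over 54613 probe sets). Called probe sets had both an adjusted p under 0.05 and a fold of at least 1.25, the minimum in the study's methods. SAM was written from its description (delta 0.53, all 20 relabelings). Precision is limited by the number of arrays: 3 against 3 cannot go below p = 0.1 in an exact permutation test. Members and lists were chosen with earlier results of these data known. Genes named were all members and measured neighbours, the 5 genes nearest TDRD9 in profile, and for each list and direction up to 4 called genes or, without a call, the gene of lowest adjusted p. STK31, DDX4, TDRD12, PLD6, HENMT1, PRMT5, WDR77, TCFL5 and MYBL1 were chosen after their values were seen, to show the roles in the list, and so were the cell type markers named. DICER1 was named as the lower end of its list.

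The code was tested on simulated arrays (54613 probe sets, 3 arrays a group, 50 probe sets at each size of change). At log2 changes of 0.5, 1 and 2, limma found 3, 32 and 48 of the 50. SAM found 24, 42 and 50, with 82 false calls among 248 (limma 5 among 138). Within groups, arrays correlated at 0.987 to 0.997. Alternatives were a replicate block, an intensity trend, other fold minimums, leaving out dim probe sets, scaling to 11 housekeeping genes, a second quantile normalization, averaging the probe sets of each gene, SAM, and each array left out in turn. Promoter windows came from RefSeq (GRCh38.p14).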

Additional observations from a re-analysis of the deposited data

How the results depend on the processing

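The TDRD9 difference was 3.94 to 4.44 on the log2 scale over housekeeping scaling, second quantile normalization and 6 left-out arrays. Averaging within genes could not change it, since TDRD9 has a single probe set. No other measured member, no further measured piRNA gene and no measured neighbour was called under any of the 15 alternatives. The other fold minimums could add no call to these genes, since none passed the adjusted p in the main fit. With dim probe sets left out, 1 of the 12 other probe sets remained to be tested, so that setting says little of the members. Over the other settings their lowest adjusted p from limma was 0.353. Of all 54613 probe sets, limma called 663 higher and 444 lower. These counts were 357 and 153 at a fold minimum of 2, 356 and 215 after averaging within genes (fewer tests), 1313 and 868 by SAM, and 353 to 725 and 156 to 465 with an array left out. Scaling by housekeeping genes gave 546 and 606, which moved the share of higher calls from 59.9% to 47.4%, with a shift of -0.08 in the median. This scaling lowered the difference of every probe set by the same amount. The 11 genes used for it had differences of -0.16 to 0.38 before scaling, with a median of 0.06, and none was called by limma. The 7 comparison lists had 2 genes higher and 1 lower among 145 measured, against 1.74% higher and 1.16% lower over all genes. They had 1 higher and 3 lower after housekeeping scaling, 1 and 2 with probe sets averaged, 1 higher at a fold minimum of 2, 3 higher and 3 lower by SAM (RTL8C added as higher), and 0 to 2 higher and 1 to 2 lower with an array left out. ZMYND8 was the gene lost in the first 3 of these (adjusted p of 0.0564 and 0.066 from limma with scaling and averaging), and DNMT3A and ERVMER34-1 were among those gained. SSX1 was called lower under all 15, at -0.60 with its probe sets averaged against -1.03. The causes were not tested.

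Fitting the replicate number as a block gave 1208 higher and 825 lower, and 2 lower in the comparison lists, with DNMT3A added (adjusted p = 0.0451 from limma). The main fit did not take the numbers to pair the arrays, since the labels state no pairing. Deviations from the group means correlated at -0.017, 0.523 and 0.326 for arrays number 1, 2 and 3. Arrays of unlike number correlated at -0.479 to 0.352, so number 2 lay above that range and the others within it. An effect shared by arrays of the same number was not tested. In the simulation limma missed most changes of 0.5. It made fewer calls there than in the data (138 against 1107), so the adjusted p was harder to pass and the recovery may be understated. A change of that size in a member could still go uncalled. Signals under the array medians limit what can be said of 10 of the 12 probe sets.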
